A study of Homo sapiens with 6 samples.

Results

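The genes described here were 10 members of the S100 family of calcium-binding proteins, measured in SW480 cells after knockdown of the transcription factor ZEB1. They were S100A2, S100A3, S100A4, S100A6, S100A10, S100A11, S100A13, S100A14, S100A16 and S100P, found by gene name among 32029 genes listed. SW480 is an established human colorectal cancer cell line. The 3 cultures of the siNC group were labelled wild type and received a control siRNA, and the 3 cultures of the siZEB1 group received siRNA against ZEB1. All 6 cultures were collected 48 h after transfection and came from 1 cell line, and how many siRNA sequences were used is not given in the sources used here. The comparison asks how S100 transcript levels differed once ZEB1 was lowered.

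S100 proteins are small cytosolic proteins of the EF-hand class, a helix-loop-helix fold that holds calcium. Most work as dimers that expose a binding face when calcium rises and then dock on other proteins, such as annexins, non-muscle myosin and other cytoskeletal proteins. Some are also released and act on AGER, the receptor for advanced glycation end products. Several are used as markers of tumour cell motility or of epithelial differentiation, and in the colon S100P and S100A4 are known as genes of carcinoma cells. ZEB1 is a zinc-finger factor that binds E-boxes of the sequence CACCTG (on the other strand, CAGGTG) and is best known as a repressor of epithelial genes.

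Of the S100 genes described, 9 lie on chromosome 1 (GRCh38), on the minus strand, across 1648 kb. Within this span, 7 of them, from S100A6 to S100A13, are packed into 96.8 kb. In the GENCODE annotation S100A3 lies inside the span of S100A4 on the same strand, but their annotated exons share no bases. The RefSeq start site of S100A4 used below lies at lower coordinates than all of S100A3, so from that start site S100A4 does not enclose it. S100P stands apart, on the plus strand of chromosome 4 at chr4:6693069-6697170.

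Promoters of 5 members are printed. Those of S100A14, S100P, S100A4 and S100A16 carry the ZEB1-type E-box. That of S100A3, the lowered member with the largest change, lacks it. S100A2, which also carries the E-box at the second of its start sites, is not printed. Each run covers 250 bases before to 50 bases after the RefSeq start site (GRCh38.p14), read 5′ to 3′ on the gene's strand, with CACCTG or CAGGTG in capitals. The windows are S100A14 at chr1:153616276-153616575 on the minus strand, S100P at chr4:6693628-6693927 on the plus strand, S100A4 at chr1:153545757-153546056 on the minus strand, S100A16 (the first of its start sites) at chr1:153613088-153613387 on the minus strand and S100A3 at chr1:153549209-153549508 on the minus strand.
S100A14: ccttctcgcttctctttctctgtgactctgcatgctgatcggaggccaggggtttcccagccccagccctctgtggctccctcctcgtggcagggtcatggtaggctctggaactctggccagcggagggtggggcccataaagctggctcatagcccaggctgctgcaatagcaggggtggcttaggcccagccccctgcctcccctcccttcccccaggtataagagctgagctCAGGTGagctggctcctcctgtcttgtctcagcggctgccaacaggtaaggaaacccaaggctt
S100P: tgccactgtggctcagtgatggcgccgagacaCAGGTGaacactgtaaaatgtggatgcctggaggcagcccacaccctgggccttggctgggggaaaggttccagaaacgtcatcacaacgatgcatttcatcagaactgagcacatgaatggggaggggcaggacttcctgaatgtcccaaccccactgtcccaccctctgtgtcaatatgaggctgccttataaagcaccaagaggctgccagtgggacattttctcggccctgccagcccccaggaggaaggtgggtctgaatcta
S100A4: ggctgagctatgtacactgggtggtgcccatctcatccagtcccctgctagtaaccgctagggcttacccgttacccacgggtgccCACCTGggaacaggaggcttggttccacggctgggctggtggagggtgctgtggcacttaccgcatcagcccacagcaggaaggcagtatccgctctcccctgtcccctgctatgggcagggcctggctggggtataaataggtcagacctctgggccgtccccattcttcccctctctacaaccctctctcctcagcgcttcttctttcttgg
S100A16: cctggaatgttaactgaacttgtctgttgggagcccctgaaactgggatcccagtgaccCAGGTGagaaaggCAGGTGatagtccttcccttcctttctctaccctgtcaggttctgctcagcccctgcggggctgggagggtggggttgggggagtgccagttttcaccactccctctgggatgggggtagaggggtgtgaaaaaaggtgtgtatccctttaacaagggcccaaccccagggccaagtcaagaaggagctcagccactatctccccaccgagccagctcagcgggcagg
S100A3: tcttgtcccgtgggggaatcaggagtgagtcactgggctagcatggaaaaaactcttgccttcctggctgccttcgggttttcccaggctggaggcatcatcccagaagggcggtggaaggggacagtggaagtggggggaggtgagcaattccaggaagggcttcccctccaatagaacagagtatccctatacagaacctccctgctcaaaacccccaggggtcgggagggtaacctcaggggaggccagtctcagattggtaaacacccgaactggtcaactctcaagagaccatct

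The first base of the E-box stood 14 bases before the start site in S100A14, 164 bases before it in S100A4 and 218 bases before it in S100P. S100A16 held a pair of them, 191 and 178 bases before its first start site, and another 45 bases after its second. In S100A2 the motif stood 18 bases before the second of its start sites. None was found in the windows of S100A3, S100A6, S100A10, S100A11 and S100A13. In all, 5 of the 10 members and 6 of their 14 start-site windows held CACCTG or CAGGTG, against 24.1% of 27305 genes and 20.6% of 35116 windows in the whole promoter table. The looser E-box CANNTG, which includes these, was in 7 members and 10 windows, against 73.1% of genes and 68.7% of windows. A match describes the letters of the window, not a bound site. Of the 5 members with the motif, S100A14 rose, S100A4 fell, S100A2 and S100A16 did not pass the test and S100P was not tested. Those without it included the raised S100A13 and the lowered S100A3 and S100A6.

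**Figure D1:**
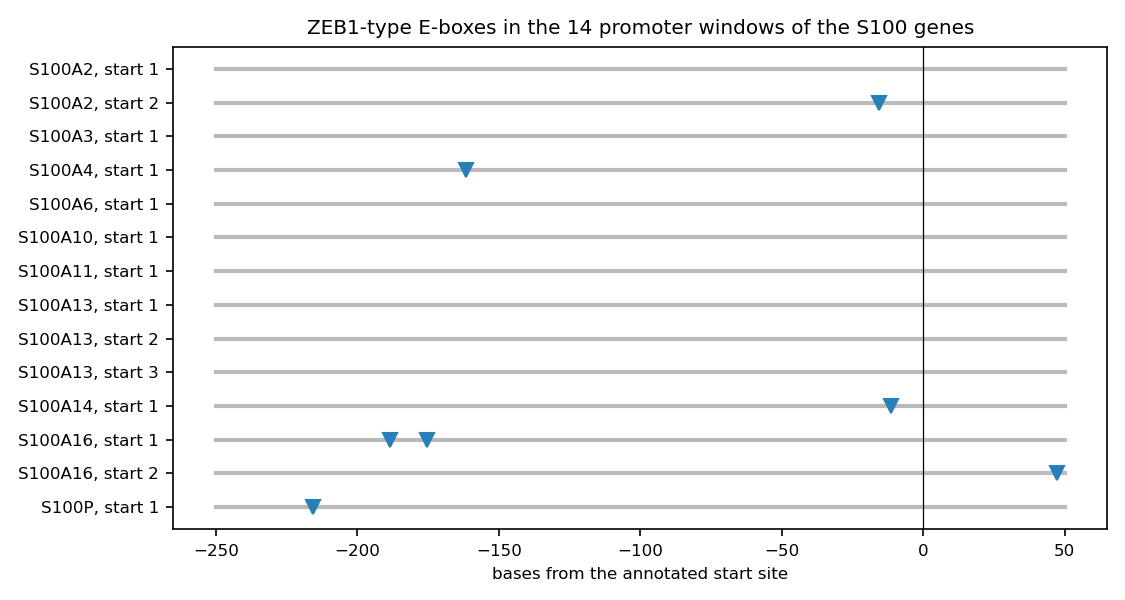
E-boxes of the ZEB1 type in the 14 start-site windows of the 10 S100 genes, with distance from the RefSeq start site in bases on the horizontal axis and 1 line per window. Marks stand at the middle of single E-boxes, whose first bases fall in 6 windows and lie between 218 bases before and 45 bases after the start site.

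The libraries held 19040636 to 22357633 reads assigned to genes, and no batch was given in the labels. ZEB1 itself had 1247, 1276 and 908 reads in the siNC cultures and 136, 132 and 162 in the siZEB1 cultures, or -2.85 on the log2 scale (SE 0.11, adjusted p = 4.85e-12). KRT8 and KRT18, keratins of simple epithelium, were high in both groups, at 3304 to 3676 and 1267 to 1567 CPM (counts scaled to library size), while CDH17, an intestinal cadherin, lay at or under 0.261 CPM. Of 8 tested markers on the list for colorectal epithelium, 4 were higher in siZEB1, 2 were lower, and KRT8 and KRT18 did not pass the test. The raised ones were EPCAM (log2 fold change 3.05), VIL1 (2.34), KRT19 (1.62) and ASCL2 (0.81), and the lowered ones were LGR5 (-1.98) and CDX2 (-1.30). LGR5 was low in both groups, at 0.714 to 0.986 CPM in siNC and 0.053 to 0.416 CPM in siZEB1, so its fold rests on few reads. LGR5 passed the filter on low counts only through its siNC cultures, so the count of lowered markers rests in part on that choice. EPCAM, an epithelial adhesion protein, stood at 52.3 to 56.8 CPM in siNC and 437 to 463 CPM in siZEB1 cultures, and CDX2, an intestinal transcription factor, at 95.1 to 109 and 40.2 to 44.8 CPM. Summed, the list came to 4817 to 5441 CPM in siNC and 5332 to 6007 CPM in siZEB1 cultures. Summed markers of fibroblasts came to 13.3 to 14.8 CPM in siNC and 13.3 to 15.1 CPM in siZEB1 cultures, those of myeloid cells to 0.938 to 1.04 and 1.2 to 1.72 CPM, and those of endothelium to 2.02 to 2.72 and 1.54 to 2.6 CPM. The part of any of these in the S100 values was not tested. These are bulk cultures, so fewer cells expressing a gene and less RNA per cell cannot be told apart.

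In the siNC cultures S100A4 was the highest of the 10 genes per length, at 458 ± 33.9 RPKM (CPM per kilobase of exon, SD, n = 3). It was followed by S100A11 at 395 ± 31, S100A10 at 225 ± 15.7 and S100A6 at 140 ± 11.2 RPKM. S100A16 at 63.8 ± 4.44 and S100A3 at 59.3 ± 3.87 RPKM came next, and their cultures overlapped. S100A2 stood at 4.81 ± 0.193, S100A13 at 0.904 ± 0.256, S100A14 at 0.136 ± 0.0131 and S100P at 0.0698 ± 0.121 RPKM. Down to S100A14 the cultures of neighbouring genes in this order did not overlap, apart from S100A16 and S100A3. S100P, with 6 reads in siNC replicate 2 and 0 in the others, overlapped S100A14.

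After ZEB1 knockdown the 10 genes kept the same order per length. S100A4 stood at 389 ± 32.7 and S100A11 at 362 ± 20.1 RPKM, and the cultures of these 2 genes overlapped in siZEB1 (353 to 418 and 340 to 379 RPKM) but not in siNC (435 to 497 and 370 to 429 RPKM). S100A16 at 59.4 ± 5.19 RPKM then lay clear of S100A3 at 33.4 ± 2.46 RPKM. S100A14 reached 0.916 ± 0.312 RPKM and S100P 0.341 ± 0.168 RPKM, still the 2 lowest. With the longest transcript as the length, the order was unchanged in both groups, but S100A16 and S100A3 no longer overlapped in siNC, at 94.7 ± 6.58 and 66.2 ± 4.32 RPKM. Summed over the 10 genes, the level was 1315, 1368 and 1506 CPM in siNC and 1253, 1306 and 1120 CPM in siZEB1 cultures. The groups did not overlap, by a margin smaller than the spread within either.

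**Figure D2:**
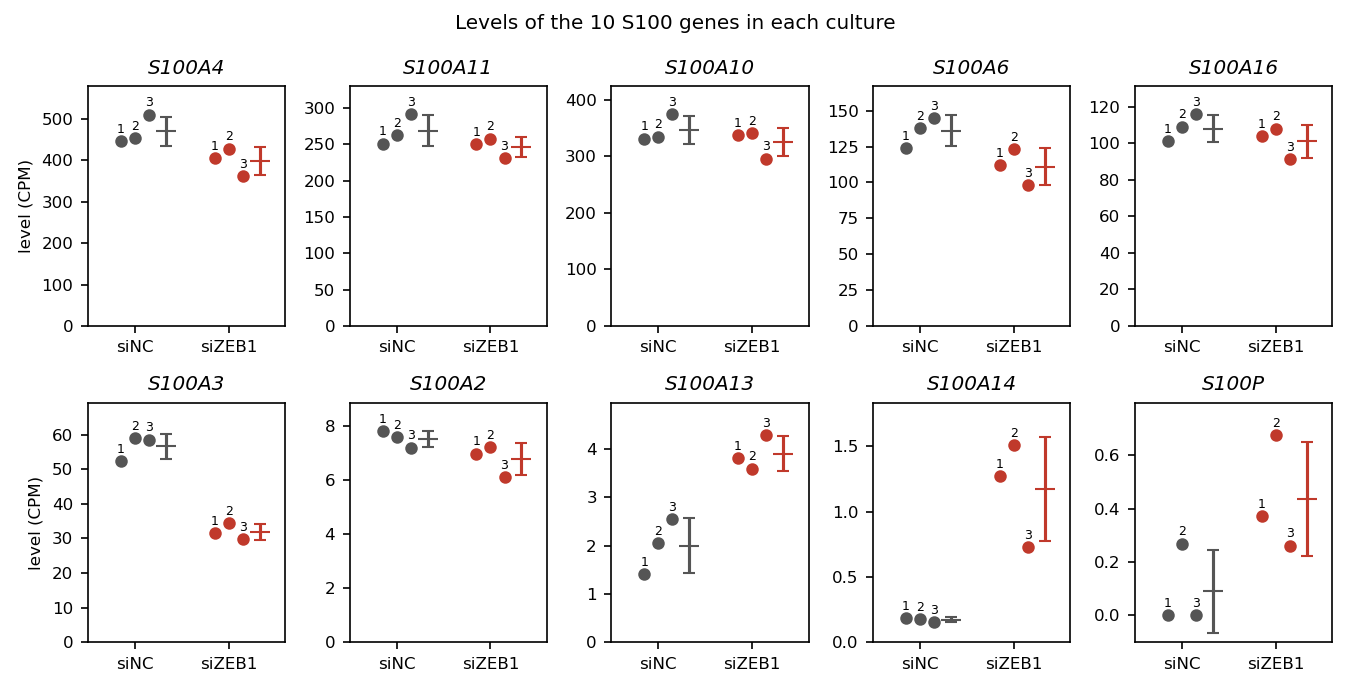
Level of each of the 10 S100 genes in CPM, 1 panel per gene with its own linear axis, with numbered points for the siNC and siZEB1 replicates and bars for the group mean ± SD (n = 3). S100A14 and S100A13 are higher and S100A3 is lower in every siZEB1 culture than in any siNC culture, and S100P has 0 reads in 2 siNC cultures.

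Of the 10 members, 9 passed the filter on low counts. At an adjusted p under 0.05, S100A13 and S100A14 were higher in siZEB1, S100A3, S100A4 and S100A6 were lower, and S100A2, S100A10, S100A11 and S100A16 did not pass the test. The 2 that rose were low in these cells, and 2 of the 3 that fell were among the 4 highest. These 5 called members compare with 40.2% of the 14996 genes tested, of which 19% of genes were higher and 21.2% lower. The cultures of the groups did not overlap in 5 of the tested members, against 49.5% of all genes tested. S100A3, S100A13 and S100A14 also passed a fold change above 1.5 with an unadjusted p under 0.05, which 16.6% of all genes did. The median log2 fold change was -0.12 over the tested members and -0.0055 over all genes tested. Among protein-coding genes with a mean above 5 CPM, it was -0.049 where the longest transcript had up to 1000 bases. For those over 1000 and up to 1500 bases it was 0.017. S100A14 passed the filter only through its siZEB1 cultures, so these counts are descriptions and rest in part on that choice.

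**Figure D3:**
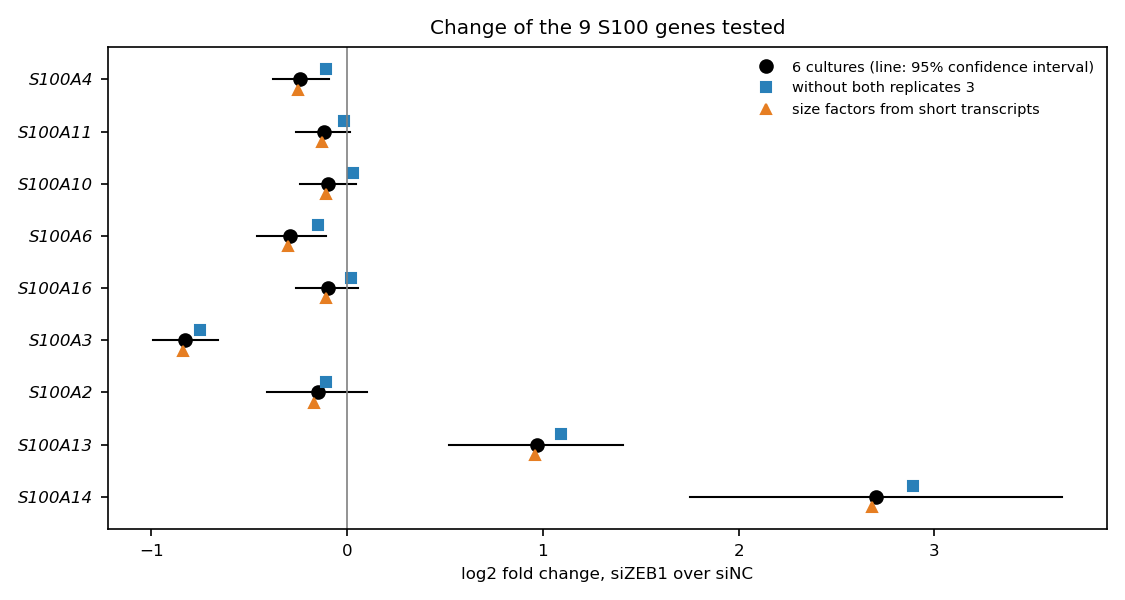
Log2 fold change of the 9 tested S100 genes in siZEB1 against siNC, with circles for the estimate from 6 cultures and lines for its 95% confidence interval, squares for the fit without both replicates 3 and triangles for size factors from short transcripts. The intervals of S100A13 and S100A14 lie above 0, those of S100A3, S100A4 and S100A6 lie below 0, and those of S100A2, S100A10, S100A11 and S100A16 cross 0.

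S100A14 is an S100 protein of stratified and glandular epithelium that is often found at the cell membrane. Its reads numbered 4, 4 and 3 in the siNC cultures and 24, 29 and 14 in the siZEB1 cultures. In CPM these were 0.188, 0.179 and 0.156 against 1.27, 1.51 and 0.731. Every siZEB1 culture lay above every siNC culture, with siZEB1 replicate 3 the lowest of its group. The log2 fold change was 2.70 (SE 0.45, 95% confidence interval 1.75 to 3.65), or 6.5-fold, with an adjusted p = 0.000132. The gene stayed low, so the fold rests on few reads.

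S100A13 helps release FGF1, a growth factor exported without a signal peptide. It had 30, 46 and 49 reads in siNC and 72, 69 and 82 in siZEB1 cultures, or 1.41, 2.05 and 2.54 against 3.81, 3.59 and 4.28 CPM. All siZEB1 cultures lay above all siNC cultures, and siNC replicate 1 was the lowest. The gene rose by 0.97 on the log2 scale (SE 0.21, interval 0.52 to 1.41), or 1.95-fold, with an adjusted p = 0.00134. Its annotation shares 24.2% of exonic bases with AL162258.1 on the same strand and 10.6% with S100A1 on the other strand. Of its 50-base words, 25.7% also occur in transcripts of other genes. Its count is uncertain in this respect, since the strand setting of the counting is not given in the sources used here.

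S100P, first described in placenta and a ligand of AGER and ezrin, fell under the filter. It had 0, 6 and 0 reads in the siNC cultures and 7, 13 and 5 in the siZEB1 cultures, or 0, 0.268 and 0 against 0.371, 0.676 and 0.261 CPM. The groups overlapped, because siNC replicate 2 lay above siZEB1 replicate 3. A culture with 0 reads allows up to 3, which is 0.141 CPM in siNC replicate 1 and 0.156 CPM in replicate 3, for counting error only. Fitted with no filter, S100P stood 2.14 higher on the log2 scale in siZEB1 (adjusted p = 0.0204). The unfiltered edgeR fit gave ZEB1 an adjusted p = 4.04e-171, against 4.85e-12 in the main fit. Its adjusted p therefore cannot be set beside those of the main fit.

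S100A3, rich in cysteine and known from the hair cuticle, showed the largest fall. It had 1114, 1322 and 1128 reads in siNC and 595, 663 and 571 in siZEB1 cultures. These were 52.4, 59 and 58.5 CPM against 31.5, 34.5 and 29.8 CPM, so the lowest siNC culture stood well above the highest siZEB1 culture. The log2 fold change was -0.83 (SE 0.079, interval -0.99 to -0.66; adjusted p = 3.46e-07), so that the linear level fell by 43.6%. For every 100 reads of S100A4, the gene whose GENCODE span encloses it, there were 11.7, 13 and 11.5 reads of S100A3 in siNC and 7.78, 8.05 and 8.23 in siZEB1 cultures. The ratio was lower in every siZEB1 culture than in any siNC culture, and it does not depend on library scaling.

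S100A4, also called metastasin, binds non-muscle myosin heavy chain and is linked to cell motility. It had 9488, 10161 and 9829 reads in siNC and 7648, 8238 and 6934 in siZEB1 cultures, or 446, 454 and 510 against 405, 428 and 362 CPM. The groups did not overlap, but siNC replicates 1 and 2 stood close above siZEB1 replicates 1 and 2. S100A4 fell by 0.24 on the log2 scale (SE 0.068, interval -0.38 to -0.094; adjusted p = 0.00972). For every 100 reads of S100A10 there were 135, 136 and 136 reads of S100A4 in siNC and 120, 126 and 122 in siZEB1 cultures. S100A4 was therefore lower relative to S100A10 in every siZEB1 culture. It made up 33.9, 33.2 and 33.9% of the summed CPM of the 10 genes in siNC and 32.3, 32.8 and 32.4% in siZEB1.

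S100A6, or calcyclin, binds annexins and CACYBP. It had 2635, 3098 and 2800 reads in siNC and 2123, 2373 and 1876 in siZEB1 cultures, or 124, 138 and 145 against 112, 123 and 98 CPM. The lowest siNC culture and the highest siZEB1 culture nearly touched. Another gene on the opposite strand covers 2.37% of its exonic bases. S100A6 fell by 0.29 on the log2 scale (SE 0.082, interval -0.46 to -0.11; adjusted p = 0.0096). Against S100A4 it held its place, with 27.8, 30.5 and 28.5 reads per 100 of S100A4 in siNC and 27.8, 28.8 and 27.1 in siZEB1 cultures, which overlapped.

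S100A10 and S100A11 are partners of annexins A2 and A1. S100A10, which pairs with ANXA2 without needing calcium, had 331, 335 and 375 CPM in siNC and 337, 341 and 296 CPM in siZEB1 cultures. The groups overlapped, and the log2 fold change was -0.096 (interval -0.24 to 0.044, adjusted p = 0.268). S100A11 had 251, 263 and 292 CPM in siNC and 250, 258 and 231 CPM in siZEB1 cultures, again overlapping. Its log2 fold change was -0.12 (interval -0.26 to 0.014, adjusted p = 0.145). The ratio of S100A11 to S100A10 was 75.8, 78.5 and 77.9 reads per 100 in siNC and 74.2, 75.7 and 78.2 in siZEB1, with overlapping groups.

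S100A16, a broadly expressed member, had 101, 109 and 116 CPM in siNC and 104, 108 and 91.1 CPM in siZEB1 cultures. Its groups overlapped, with a log2 fold change of -0.10 (interval -0.26 to 0.057, adjusted p = 0.301). S100A2, an epithelial member known as a target of p53, had 166, 170 and 139 reads in siNC and 132, 139 and 117 in siZEB1 cultures. In CPM these were 7.81, 7.59 and 7.21 against 6.99, 7.23 and 6.11, overlapping by a narrow margin. The log2 fold change was -0.15 (interval -0.41 to 0.10, adjusted p = 0.34). For S100A2, S100A10, S100A11 and S100A16 the intervals leave room for falls of about the size measured in S100A4, so the test does not show that they stayed level.

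Replicates of 1 group differed along transcript length, which bears on these short transcripts. Among 174 protein-coding genes whose longest transcript had up to 1000 bases, the median deviation from the group mean (log2 CPM) was -0.07, -0.05 and 0.11 in siNC and 0.03, 0.09 and -0.12 in siZEB1 cultures. Among the 3125 genes over 5000 bases it was 0.04, 0.03 and -0.07 in siNC and -0.01, -0.05 and 0.06 in siZEB1. The median of the 9 tested S100 genes was -0.09, 0.01 and 0.10 in siNC and 0.03, 0.10 and -0.13 in siZEB1, on the same side as the short genes in every culture but siNC replicate 2. In siNC, replicate 3 was the highest in 6 of the 9 genes. In siZEB1, replicate 3 was the lowest in 8 of the 9.

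The falls of S100A4 and S100A6 moved with those replicates. Without both replicates 3, a choice made after seeing the data, S100A4 stood at -0.11 on the log2 scale (adjusted p = 0.047) and S100A6 at -0.15 (adjusted p = 0.0241), in a fit of 2 cultures against 2. This smaller fit called 6923 genes, against 6035 in the main fit, so its adjusted p cannot be set beside those of the main fit. S100A3 then stood at -0.75, S100A13 at 1.09 and S100A14 at 2.89. S100A10 and S100A16 changed sign there, at 0.028 and 0.018, without passing the test. With size factors taken from genes whose longest transcript had at most 1500 bases, S100A4 stood at -0.25, S100A6 at -0.30 and S100A3 at -0.84. The part of transcript length in the falls of S100A4 and S100A6 was not tested further.

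**Figure D4:**
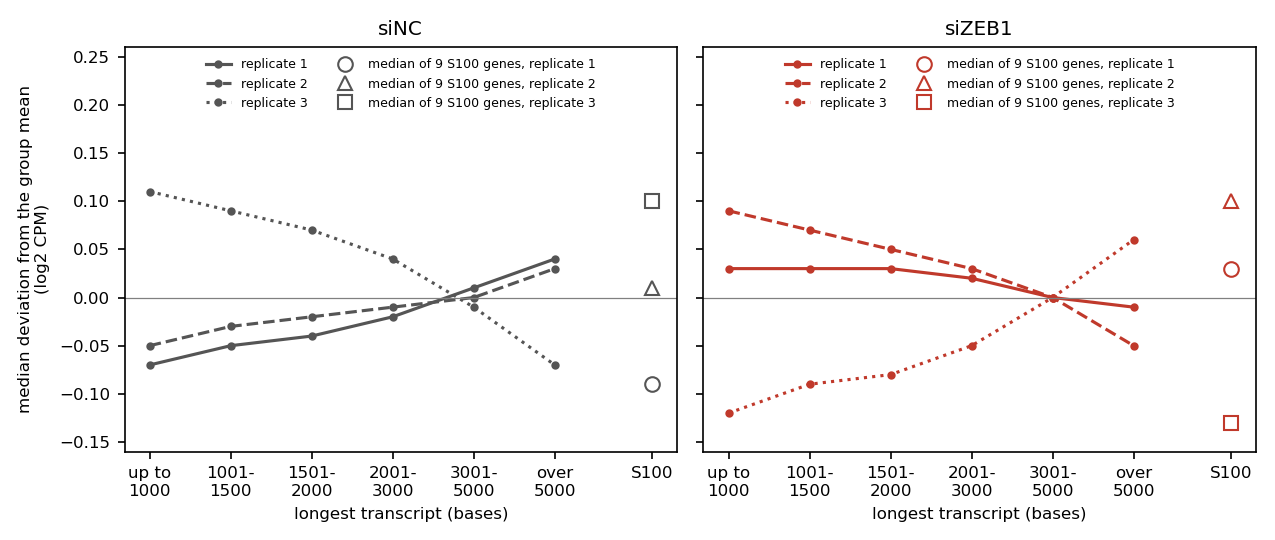
Median deviation of protein-coding genes from their group mean, in log2 CPM, by class of longest transcript in bases, with 1 line per replicate and open marks for the median of the 9 tested S100 genes. In siNC replicate 3 the shortest class sits at 0.11 and the longest at -0.07, in siZEB1 replicate 3 at -0.12 and 0.06, and the S100 marks of both replicates lie on the side of the short classes.

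Outside these 10 genes, a list of 18 other S100 and fused-type S100 genes was measured. Of these, 10 were listed and 5 were tested, and 1 was called, or 20% against 40.2% of all genes tested. It was FLG (filaggrin, of the skin barrier), with 63, 90 and 54 reads in siNC and 47, 35 and 44 in siZEB1 cultures. Its log2 fold change was -0.57 (adjusted p = 0.036), a call lost in 6 of 14 alternative analyses. Without siNC replicate 2 it stood at -0.39 (adjusted p = 0.211), without siZEB1 replicate 2 at -0.45 (adjusted p = 0.138) and without siZEB1 replicate 3 at -0.60 (adjusted p = 0.0536). Exons of FLG-AS1, on the opposite strand, cover 5.52% of those of FLG. FLG-AS1 rose by 0.72 (adjusted p = 0.00895), and by 0.57 without siZEB1 replicate 2 (adjusted p = 0.0562). S100A5, next to S100A6, had 64, 57 and 64 reads in siNC and 43, 46 and 42 in siZEB1, did not overlap and did not pass the test (log2 fold change -0.36, adjusted p = 0.141). S100A1 had 19, 20 and 8 reads against 32, 13 and 27, which overlapped, and stood 0.75 higher on the log2 scale (adjusted p = 0.123). Without siZEB1 replicate 2, S100A1 passed the test at 1.06 (adjusted p = 0.0337), but genes on the opposite strand cover 18.3% of its exonic bases. The 5 that were not tested, among them S100A7, S100A9 and S100B, had at most 3 reads in any culture.

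Of 30 genes for S100 partners and receptors, 28 were tested, with 8 higher and 7 lower, or 53.6% against 40.2% of all genes tested. Their median log2 fold change was -0.047. AGER, the receptor for several S100 proteins, had 48, 46 and 56 reads in siNC and 79, 89 and 94 in siZEB1 cultures. The groups did not overlap, and AGER rose by 0.93 on the log2 scale (SE 0.18, adjusted p = 0.000466), from 2.41 ± 0.444 to 4.57 ± 0.366 CPM (SD, n = 3). Among cytoskeletal partners, EZR (ezrin, bound by S100P) rose by 0.38 (adjusted p = 1.15e-05) and MYH9 (the myosin heavy chain bound by S100A4) by 0.32 (adjusted p = 8.03e-05). IQGAP1, a scaffold of the cell cortex, did not pass the test, at 0.011 (adjusted p = 0.921). Without both replicates 3 it turned to -0.13 (adjusted p = 0.017), but the adjusted p of that smaller fit cannot be set beside those of the main fit. Among annexin and membrane partners, ANXA1 rose by 0.32 (adjusted p = 0.00437), AHNAK, a large partner of S100A10 with ANXA2, fell by 0.38 (adjusted p = 0.000198), and ANXA2 did not pass the test at -0.11 (adjusted p = 0.0834). ANXA2 passed it at -0.12 with total library size (adjusted p = 0.0469) and with short-transcript size factors (adjusted p = 0.0468). CACYBP, the calcyclin-binding protein, rose by 0.17 (adjusted p = 0.0254), a call lost in 6 of 14 alternatives, among them those without siNC replicate 2 (0.15), siZEB1 replicate 1 (0.17) and siZEB1 replicate 2 (0.16).

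The other partners with the largest changes all fell. PLAT, the tissue plasminogen activator, whose activity at the cell surface S100A10 promotes, had 184, 126 and 115 reads in siNC and 57, 67 and 67 in siZEB1, and fell by 1.02 on the log2 scale (adjusted p = 0.000217). SYT1, a synaptotagmin released together with S100A13 and FGF1, fell by 0.64 (adjusted p = 0.00197). NES, the intermediate filament protein nestin, fell by 0.50 (adjusted p = 2.27e-05). STUB1, a ubiquitin ligase bound by S100 proteins, fell by 0.42 (adjusted p = 0.00166), and by 0.25 without both replicates 3.

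Of 40 other EF-hand genes, 36 were tested, with 10 higher and 10 lower, or 55.6% against 40.2% of all genes tested. Their median log2 fold change was -0.0084. CETN2, a centrin of centrioles, had 664, 682 and 614 reads in siNC and 153, 152 and 135 in siZEB1 cultures and fell by 2.02 (adjusted p = 4.27e-11). GCA, grancalcin, had 92, 73 and 95 reads against 176, 187 and 162 and rose by 1.14 (adjusted p = 1.06e-05). LCP1, an actin-bundling plastin, rose by 0.75 (adjusted p = 0.0197), a call lost without siNC replicate 3 (0.56) or siZEB1 replicate 2 (0.70). EFHD2, an actin-associated EF-hand protein, fell by 0.60 (adjusted p = 1.31e-06), as did the related EFHD1 by 0.74 (adjusted p = 0.0429), whose call was lost in 9 of 14 alternatives. Of the fits of EFHD1 without 1 culture, from -0.87 to -0.65, only that without siNC replicate 2 kept the call.

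Along chromosome 1, 23 genes in the stretch from 500 kb before the first to 500 kb after the last member were tested. Of these, 5 were higher and 5 lower, or 43.5% against 40.2% of all genes tested. TUFT1, tuftelin, rose by 1.37 (adjusted p = 2.09e-09), with 304, 327 and 289 reads in siNC and 757, 738 and 664 in siZEB1 cultures. PRR9, a proline-rich gene of the epidermal complex, had 88, 100 and 85 reads against 37, 22 and 25 and fell by 1.56 (adjusted p = 1.4e-05). THEM4, a thioesterase, fell by 1 (adjusted p = 2.88e-07), and SLC27A3, of the fatty acid transporter family, rose by 0.71 (adjusted p = 0.00394), though it shares 8.32% of its exonic bases with INTS3 on the same strand. Raised, lowered and uncalled neighbours were interspersed. Within the cluster, the lowered members S100A3, S100A4 and S100A6 lay at one end and the raised S100A14 and S100A13 at the other, with S100A2 and S100A16 between them. The order of these 7 along the chromosome was S100A6, S100A4 with S100A3 inside its GENCODE span, S100A2, S100A16, S100A14 and S100A13. Next past S100A13 lay CHTOP, the only neighbour tested within 100 kb of the S100A6 start site. CHTOP fell by 0.52 (adjusted p = 3.34e-05), although it lay at the end of the raised members.

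**Figure D5:**
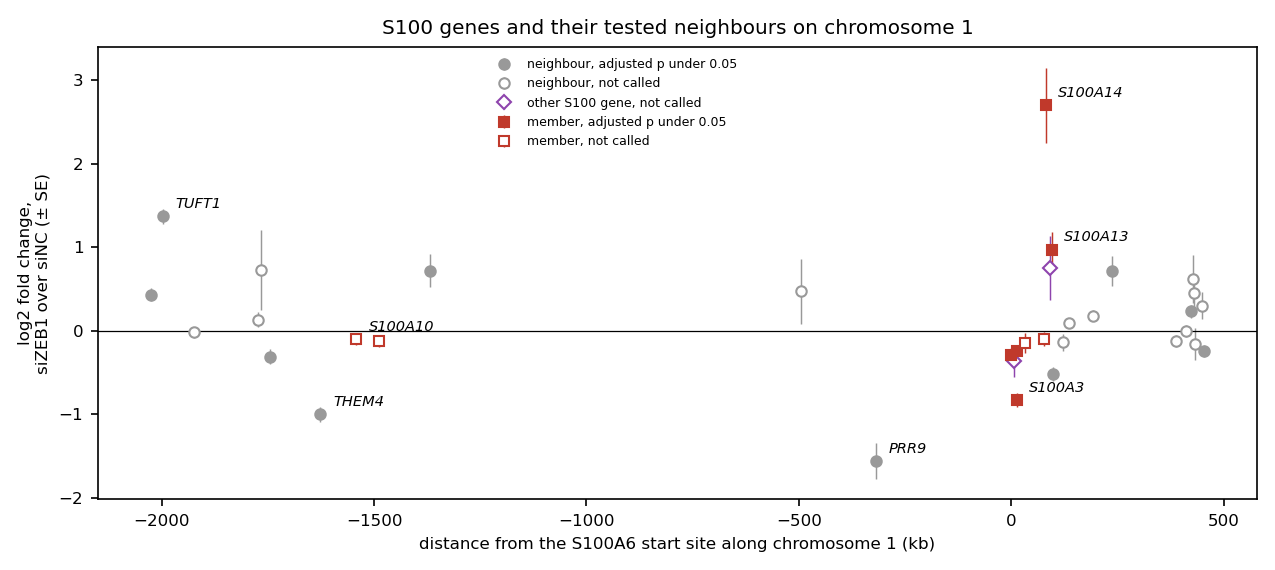
Log2 fold change of the 9 chromosome 1 S100 genes that were tested and of their tested neighbours, by distance from the S100A6 start site in kb, with squares for the 9 S100 genes, circles for neighbours, diamonds for S100A5 and S100A1, filled marks for an adjusted p under 0.05 and bars for ± SE. The lowered S100A6, S100A4 and S100A3 and the raised S100A14 and S100A13 lie within the 96.8 kb cluster, and neighbours on both sides include raised and lowered genes.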

How the data were processed

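RNA of 3 siNC and 3 siZEB1 cultures of SW480 cells was sequenced. The authors deposited raw read counts per gene for each culture, not normalized. Per the labels' processing notes, Trimmomatic, HISAT2, SAMtools and featureCounts were used with hg38, and the annotation and strand setting are not given in the sources used here. Of the Ensembl identifiers listed, 31059 matched GENCODE 29, the source of coordinates and lengths.

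Genes were filtered by edgeR's filterByExpr, normalized by TMM and compared by the two-sided quasi-likelihood test of edgeR, and p-values were adjusted by Benjamini-Hochberg across all 14996 genes tested (R 4.3.3, edgeR 4.0.16, DESeq2 1.42.0 as an alternative, Python 3.11.15). P-values come from this fit unless another is named. Levels are CPM from TMM-scaled library sizes, or RPKM by union exon length. The total count of 19040636 to 22357633 per culture sets the precision. Between cultures of 1 group, chi-square over degrees of freedom was 2.27 to 9.72, above sampling noise, and the study describes them as independent. On simulated data of 14996 genes with 200 changed, for this comparison, 95% of the changed genes were recovered. Of the calls, 4.04% were false. Recovery was 91.4% at a log2 fold change of 1 and 98.1% at 2. Recovery of smaller changes, such as those measured in S100A4 and S100A6, was not tested. The simulation gave all genes a common dispersion and no deviation along transcript length, unlike these data. Far more genes were called in the data, 6035, than were changed in the simulation. Its share of false calls therefore does not carry over to the calls made here.

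The S100 members and the gene lists were chosen with earlier results of these data known, and the lists were compiled by hand. The text names all 10 members, ZEB1, AGER, ANXA1, ANXA2, AHNAK, MYH9, CACYBP, EZR and IQGAP1 whatever their value, and up to 5 called genes of each list with the largest change. S100A1, S100A5, S100A7, S100A9, S100B, the overlapping AL162258.1 and INTS3, the neighbour CHTOP, and the epithelial markers given singly, were named after their values were seen. Sequences are from RefSeq promoters (GRCh38.p14), which held all 10 members. Alternatives were DESeq2, other size factors and filters, a replicate block, fold thresholds, a wider neighbour window, other lengths and leaving out cultures. Replicate numbers were checked for pairing by the correlation of deviations from the group means. Tables of protein sequence were not used here.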

Additional observations from a re-analysis of the deposited data

How the results depend on the processing

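S100A3, S100A4, S100A6, S100A13 and S100A14 were called, each in its own direction, under DESeq2, both other size factors, the replicate block, every fit without 1 culture, the fit without both replicates 3 and the size factors from short transcripts. In the fit without both replicates 3, which called 6923 genes, the falls of S100A4 and S100A6 were smaller, at -0.11 and -0.15. With at least 10 counts required in every culture S100A14 was not tested and 4 members were called, and with no filter S100P was added, making 6. Leaving out siZEB1 replicate 3 brought S100A4 to -0.17 (adjusted p = 0.0454) and S100A6 to -0.20 (adjusted p = 0.0484). For both genes these are the highest adjusted p among the fits without 1 culture. With a fold threshold of 1.5 and unadjusted p under 0.05, the calls were 2483 genes in place of 6035, 3 members, 0 other S100 genes, 3 partners in place of 15, 6 other EF-hand genes in place of 20 and 6 neighbours in place of 10. With an unadjusted p under 0.001 they were 1682 genes, 3 members, 0 other S100 genes, 3 partners, 4 EF-hand genes and 4 neighbours. A window of 1 Mb called 17 neighbours of 51 tested, or 33.3%, against 40.2% of all genes tested.

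For the other S100 genes the 1 call, FLG, became 0 under DESeq2, the replicate block and short-transcript size factors, and ranged from 0 to 1 over the fits without 1 culture, with 0 in those without siNC replicate 2 or siZEB1 replicate 3. Without siZEB1 replicate 2 the 1 call was S100A1 in place of FLG. Where DESeq2 or edgeR made 0 calls on this list, 1 gene had an unadjusted p under 0.05, or 2 with short-transcript size factors. IQGAP1, from -0.084 to 0.064 over the fits without 1 culture, changed sign without siNC replicate 3 (-0.084), siZEB1 replicate 3 (-0.043) and both replicates 3 (-0.13), and S100A10 (0.028) and S100A16 (0.018) did so without both replicates 3. Summed RPKM of the members in siNC was 1347, and 1735 with the longest transcript, which is shorter than the union of exons. Same-numbered cultures did not deviate together (r = -0.0517, -0.0883 and -0.2), and none correlated best with its own number, so no pairing by number was seen. Replicates 3 of the groups deviated in opposite directions along transcript length, so this check cannot exclude a pairing. The replicate block called 4968 genes, 5 members, 12 partners, 17 EF-hand genes and 9 neighbours. S100A14 and S100P rest on few reads, which limits the precision of their fold changes.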
